A study of Rattus norvegicus with 11 samples.

Results

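The neurofilament and neuronal intermediate filament genes described here are Nefl, Nefm, Nefh and Ina, which encode the neurofilament light, medium and heavy chains and α-internexin. They were chosen by symbol, and all 4 were found among the 42172 genes of the count files and passed the low-count filter with 17294 genes in all. The study sequenced polyadenylated RNA from 11 libraries of primary hippocampal neurons of CD (Sprague Dawley) IGS rats after 7 days in vitro. The neurons were made to express the linker histone H1.4 whose C-terminal tail is changed by a frameshift (H1.4 CFT, n = 4), its wild-type form (WT H1.4, n = 4) or, as controls, green fluorescent protein (GFP, n = 3). Linker histones sit on the nucleosome where DNA enters and leaves it. The comparisons ask how neurons with the mutant histone differ from those with the wild-type histone or with GFP. The construct, its promoter, the animals' age and the share of cells expressing it are not given in the sources used here. Libraries are called by group and replicate number, 1 to 4 for H1.4 CFT and WT H1.4 and 2 to 4 for GFP.

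Neurofilaments are the intermediate filaments of neurons, ropes of coiled-coil proteins that fill axons and set their calibre. The light chain can start a filament, and the medium and heavy chains join it with long tails that carry many phosphorylation sites. α-Internexin is a further partner of these chains in central neurons, is made early in neuronal development and can form filaments alone. The heavy chain appears late as axons mature.

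Each library held from 12070941 to 18846492 reads in genes, and between 45.2% and 46.0% of reads fell in no annotated feature. Libraries of a group numbered 1 and 2 were close to each other, and so were those numbered 3 and 4. The chi-square per degree of freedom between counts of library pairs was 1.79 to 2.26 within these number pairs and 3.79 to 9.27 between them. The labels name no batch, so values are also given by number pair. The main fit has a term for group only, so its p-values treat the libraries of a number pair as independent. GFP has no library 1 and is uneven on that split. Levels are CPM, the reads of a gene scaled to the library's reads in tested genes with TMM factors, as mean ± SD. CPM is not per transcript length, so levels are not compared between genes. A gene is said to rise or fall where the adjusted p of the edgeR quasi-likelihood test, over all genes tested in the comparison, was under 0.05.

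In H1.4 CFT neurons Nefl and Nefm were 1.74 to 2.16 times lower than in the other groups, while Ina and Nefh did not pass the test. Of the 4 genes, 2 fell and 0 rose against WT H1.4, where 19.2% of all genes tested fell and 16.7% rose. Against GFP again 2 fell and 0 rose, beside 16.2% of genes that fell and 13.3% that rose. Between WT H1.4 and GFP 0 of the 4 passed (0 also at an unadjusted p under 0.05), and 0.509% of genes fell and 0.434% rose there. The calls over all genes in that comparison, 88 lower and 75 higher, became 32 and 12 without GFP 3, 29 and 16 without GFP 4, 144 and 162 without GFP 2, and 47 to 62 and 37 to 45 with single WT H1.4 libraries left out. For the 4 genes DESeq2 gave the same number of calls in each comparison. Both comparisons of H1.4 CFT use the same 4 mutant libraries, and both comparisons against GFP use the same 3 GFP libraries, so they are not independent of each other.

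Nefl, the light chain, stood at 57.5, 62.5, 42.0 and 43.3 CPM in H1.4 CFT 1 to 4, against 82.2, 88.3, 91.1 and 95.5 CPM in WT H1.4 1 to 4 and 98.4, 107 and 109 CPM in GFP 2 to 4. All 4 mutant libraries lay below every other library, and H1.4 CFT 3 and 4 lay below H1.4 CFT 1 and 2. The share of all genes tested whose libraries separate in this way was not counted, here or for the genes below. The group levels were 51.3 ± 10.3 CPM in H1.4 CFT, 89.3 ± 5.59 CPM in WT H1.4 and 105 ± 5.59 CPM in GFP (SD, n = 4, 4 and 3). Nefl fell 1.74-fold against WT H1.4 (log2 fold change -0.80, SE 0.12, edgeR adjusted p = 0.00069). Against GFP it fell 2.04-fold (log2 fold change -1.03, SE 0.13, edgeR adjusted p = 0.000292). In WT H1.4 against GFP the log2 fold change of Nefl was -0.23 (95% interval -0.52 to 0.06, edgeR adjusted p = 0.544). The highest WT H1.4 library stood just under the lowest GFP library.

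Nefm, the medium chain, followed the same order of groups. Its levels were 91.2, 89.7, 63.6 and 64.7 CPM in H1.4 CFT 1 to 4, 137, 141, 156 and 154 CPM in WT H1.4 1 to 4, and 154, 163 and 182 CPM in GFP 2 to 4. Again no mutant library reached any other library, and H1.4 CFT 3 and 4 were the lowest, while WT H1.4 and GFP overlapped. The means were 77.3 ± 15.2 CPM in H1.4 CFT, 147 ± 9.61 CPM in WT H1.4 and 166 ± 14.6 CPM in GFP (SD, n = 4, 4 and 3). Nefm fell 1.90-fold against WT H1.4 (log2 fold change -0.93, SE 0.13, edgeR adjusted p = 0.000566) and also 2.16-fold relative to GFP (log2 fold change -1.11, SE 0.14, edgeR adjusted p = 0.000386). In WT H1.4 against GFP its log2 fold change was -0.18 (95% interval -0.49 to 0.13, edgeR adjusted p = 0.692). Among 11076 genes with a mean of at least 10 CPM, Nefm had the 104th lowest and Nefl the 173rd lowest fold change against WT H1.4. Against GFP their places were 57 and 76 from the lowest.

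Ina, which encodes α-internexin, did not pass in any comparison, with levels in the same range in the 3 groups. It was read at 402, 409, 392 and 371 CPM in H1.4 CFT 1 to 4, 369, 379, 400 and 402 CPM in WT H1.4 1 to 4, and 381, 386 and 372 CPM in GFP 2 to 4. The libraries of the groups were interleaved. Means were 393 ± 16.7 CPM in H1.4 CFT, 388 ± 16.0 CPM in WT H1.4 and 380 ± 6.96 CPM in GFP (SD, n = 4, 4 and 3). The log2 fold change was 0.02 against WT H1.4 (95% interval -0.07 to 0.11, edgeR adjusted p = 0.726), 0.05 against GFP (95% interval -0.04 to 0.15, edgeR adjusted p = 0.43) and 0.03 in WT H1.4 against GFP (95% interval -0.07 to 0.13, edgeR adjusted p = 0.863). The intervals of Ina for H1.4 CFT do not reach the falls of Nefl or Nefm. In the RefSeq gene table of the GRCr8 build the span of Ina overlaps that of Nt5c2, a nucleotidase gene. Nt5c2 had 123 CPM in H1.4 CFT, 130 CPM in WT H1.4 and 127 CPM in GFP on average, with edgeR adjusted p of 0.187 and 0.519 for H1.4 CFT neurons against WT H1.4 and against GFP. Nefm overlaps LOC134482139, a protein-coding entry of that table which is not among the counted symbols, and Nefl and Nefh overlap no other entry.

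The Ina promoter is shown because Ina is the member with most reads, which did not pass in any comparison, and it is the entry among the 4 that the RefSeq promoter table of the GRCr8 build matched. The window is chr1:255837879-255838178 on the plus strand, from 250 bases before to 50 bases after the gene's start. Capitals mark the matches to the GC box GGGCGG, here both on the opposite strand (CCGCCC).
Ina: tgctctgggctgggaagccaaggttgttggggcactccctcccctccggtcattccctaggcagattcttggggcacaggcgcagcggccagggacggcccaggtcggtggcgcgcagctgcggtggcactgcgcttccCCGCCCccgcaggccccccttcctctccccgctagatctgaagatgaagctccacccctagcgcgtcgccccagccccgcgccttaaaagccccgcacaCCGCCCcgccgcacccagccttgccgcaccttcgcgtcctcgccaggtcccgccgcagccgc
Its GC content was 71.7%, against a median of 51.7% over 33469 promoters of the same length. Both strands were searched for GGGCGG, the TATA box TATAAA and the E-box CANNTG. There were 2 matches to GGGCGG, which 33.1% of all promoters hold, 1 to CANNTG, which 72.1% hold, and 0 to TATAAA, which 14.2% hold. The matches in the Ina window did not overlap each other.

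Nefh, the heavy chain, was at the edge of what these libraries resolve, with 53 to 99 reads per library. It had 4.31, 5.07, 4.37 and 3.89 CPM in H1.4 CFT 1 to 4, 3.47, 4.41, 4.85 and 4.79 CPM in WT H1.4 1 to 4, and 5.23, 4.45 and 5.95 CPM in GFP 2 to 4. The groups overlapped. The log2 fold change was 0.01 against WT H1.4 (95% interval -0.32 to 0.34, edgeR adjusted p = 0.967) and -0.25 against GFP (95% interval -0.61 to 0.10, edgeR adjusted p = 0.289). In WT H1.4 against GFP it was -0.26 (95% interval -0.62 to 0.10, edgeR adjusted p = 0.607). Changes as large as the ends of these intervals are not excluded at this depth.

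**Figure D1:**
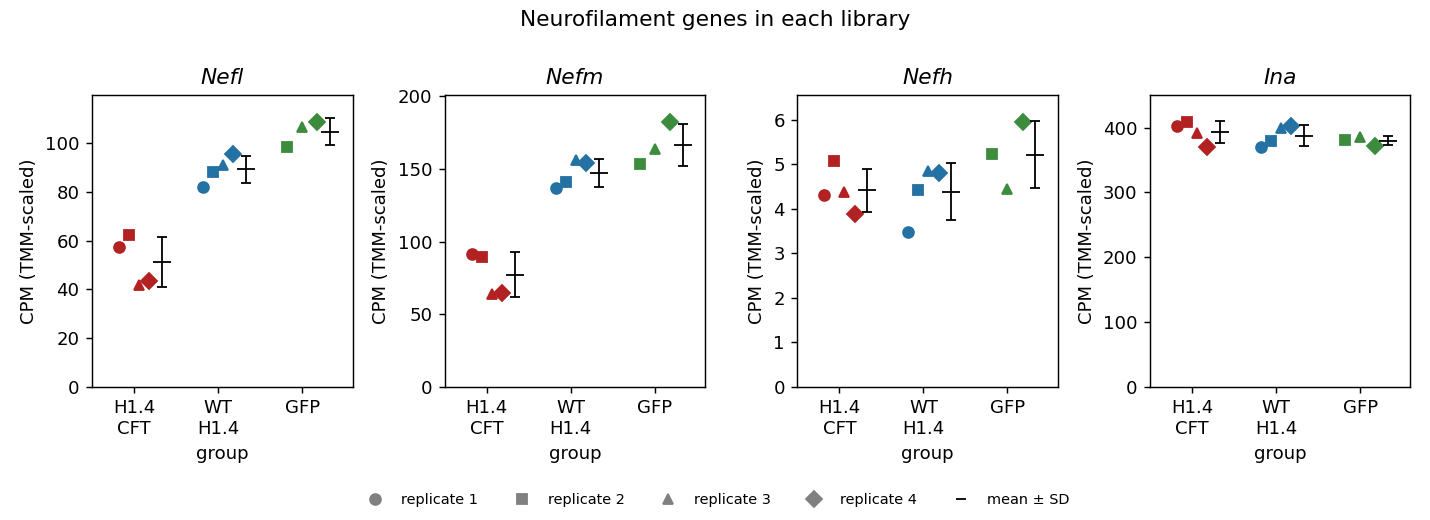
TMM-scaled CPM of Nefl, Nefm, Nefh and Ina in each library of H1.4 CFT, WT H1.4 and GFP, with mean ± SD beside the points and the marker shape giving the replicate number. Nefl and Nefm are lower in all 4 H1.4 CFT libraries (42.0 to 62.5 and 63.6 to 91.2 CPM), while Ina and Nefh overlap between groups.

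**Figure D2:**
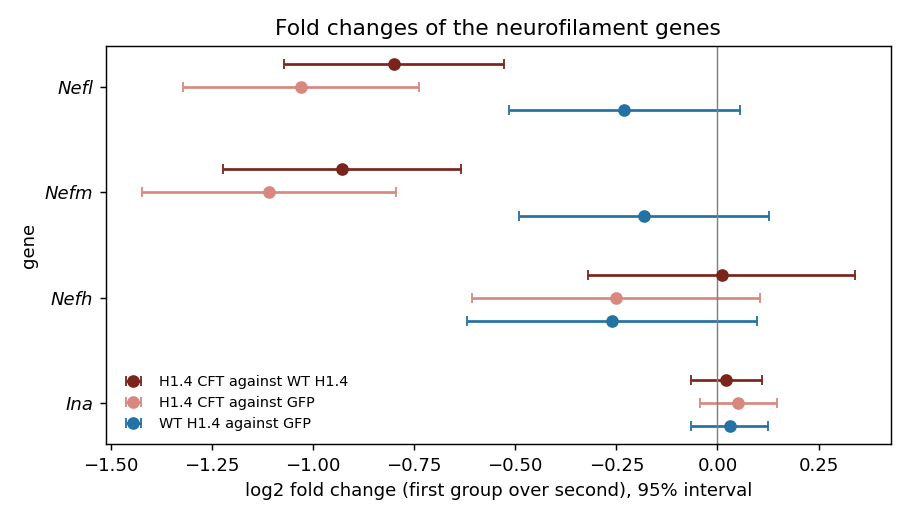
log2 fold changes of the 4 genes with 95% intervals from the edgeR fit, for both H1.4 CFT comparisons and for WT H1.4 against GFP. The intervals of Nefl and Nefm for both H1.4 CFT comparisons lie below 0, and those of Ina are narrow around 0.

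Whether the 4 genes differed among themselves was asked with ratios of read counts within a library, which need no scaling between libraries. There were 0.143, 0.153, 0.107 and 0.117 Nefl reads per Ina read in H1.4 CFT 1 to 4, against 0.222, 0.233, 0.228 and 0.237 in WT H1.4 1 to 4 and 0.258, 0.277 and 0.293 in GFP 2 to 4. For Nefm there were 0.227, 0.219, 0.162 and 0.174 reads per Ina read in H1.4 CFT 1 to 4, against 0.370, 0.371, 0.390 and 0.383 in WT H1.4 1 to 4 and 0.403, 0.423 and 0.490 in GFP 2 to 4. In both ratios the 3 groups did not overlap, with H1.4 CFT lowest and GFP highest. The mean log2 Nefl/Ina ratio differed by -0.84 for H1.4 CFT neurons against WT H1.4, by -1.10 for H1.4 CFT against GFP and by -0.26 for WT H1.4 against GFP. For Nefm/Ina the differences were -0.97, -1.18 and -0.21 in the same order of comparisons. Each of these 6 differences had an exact two-sided permutation p of 0.0286, the smallest this design can give, and a Benjamini-Hochberg adjusted p of 0.0468 over 18 ratio tests. Groups that do not overlap can give this p whatever the size of the difference. The share of other gene pairs that separate the groups this way was not counted. By edgeR neither Nefl nor Nefm passed in WT H1.4 against GFP (adjusted p of 0.544 and 0.692).

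Relative to Nefh the same genes were lower in the mutant. The log2 Nefl/Nefh ratio differed by -0.83 for H1.4 CFT neurons against WT H1.4 and by -0.81 against GFP, and Nefm/Nefh by -0.96 and -0.89 (exact permutation adjusted p = 0.0468 for each). Nefh/Ina differed by -0.0058 for H1.4 CFT neurons against WT H1.4 (exact permutation adjusted p = 0.971) and by -0.29 against GFP (exact permutation adjusted p = 0.129). Nefl and Nefm kept nearly the same proportion to each other. There were 1.58, 1.43, 1.52 and 1.49 Nefm reads per Nefl read in H1.4 CFT 1 to 4, against 1.66, 1.59, 1.71 and 1.61 in WT H1.4 1 to 4 and 1.56, 1.53 and 1.68 in GFP 2 to 4. That log2 ratio was 0.13 lower in H1.4 CFT neurons than in WT H1.4 (difference -0.13, exact permutation adjusted p = 0.0468) and differed by -0.08 from GFP (exact permutation adjusted p = 0.257). In WT H1.4 against GFP the ratios of Nefl and Nefm to Nefh, of Nefh to Ina and of Nefm to Nefl had exact permutation adjusted p of 0.237 to 0.938. Pairing libraries by number took all of these calls away, since 4 pairs allow no p under 0.125 and 3 pairs none under 0.25. The permutation adjusted p was then 0.346 for the 11 called ratios. Leaving out any 1 library of a comparison also took its ratio calls away. Against GFP the libraries left allow no p under 0.05, so that loss was fixed by the design. Against WT H1.4 the adjusted p also depends on how many of the 18 tests reach the smallest p.

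**Figure D3:**
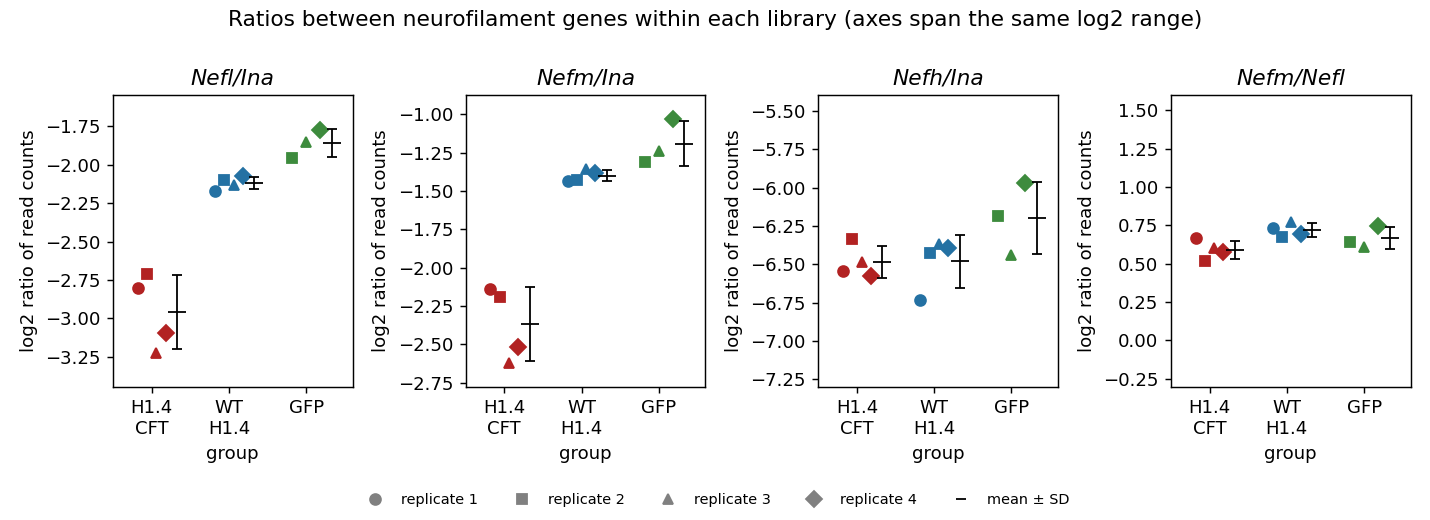
log2 ratios of read counts between neurofilament genes within each library of H1.4 CFT, WT H1.4 and GFP, with mean ± SD, on axes of equal log2 span. Nefl/Ina and Nefm/Ina are lowest in H1.4 CFT, while Nefm/Nefl varies little (1.43 to 1.71 Nefm reads per Nefl read).

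In reads, not molecules, the makeup of the 4 genes was therefore shifted toward Ina. Ina took 74.9 ± 3.01% of their summed reads in H1.4 CFT libraries, 61.7 ± 0.545% in WT H1.4 and 57.9 ± 2.10% in GFP. Nefm took 14.6 ± 1.83%, 23.4 ± 0.423% and 25.3 ± 1.68% in H1.4 CFT, WT H1.4 and GFP, and Nefl 9.69 ± 1.24%, 14.2 ± 0.317% and 16.0 ± 0.472% (SD, n = 4, 4 and 3). Nefh stayed under 1% of these reads, at 0.837 ± 0.0548% in H1.4 CFT libraries, 0.695 ± 0.0734% in WT H1.4 and 0.794 ± 0.110% in GFP.

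The fall of Nefl and Nefm held within both number pairs and was larger in numbers 3 and 4. In H1.4 CFT neurons against WT H1.4 the log2 fold change of Nefl was -1.13 in libraries 3 and 4 and -0.50 in libraries 1 and 2, and that of Nefm was -1.28 and -0.62 (edgeR adjusted p of at most 7.19e-10 in each). In a fit of those 8 libraries with a term for the number pair, the effect in numbers 3 and 4 minus that in 1 and 2 was -0.62 for Nefl (SE 0.085, edgeR adjusted p = 5.87e-08) and -0.65 for Nefm (SE 0.069, edgeR adjusted p = 2.07e-11). For Ina that difference was -0.18 (SE 0.050, edgeR adjusted p = 0.00958), with a log2 fold change of -0.08 in numbers 3 and 4 and 0.11 in numbers 1 and 2. For Nefh it was -0.48 (SE 0.30, edgeR adjusted p = 0.364). So 3 of the 4 genes passed this test of the difference, where 10.1% of all genes tested did. The p-values of these fits measure the spread between the 2 close libraries of a number pair. They do not measure the spread between number pairs. Against GFP the log2 fold changes were -1.34 for Nefl and -1.44 for Nefm in numbers 3 and 4, and -0.72 and -0.77 in numbers 1 and 2, where GFP has 1 library.

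**Figure D4:**
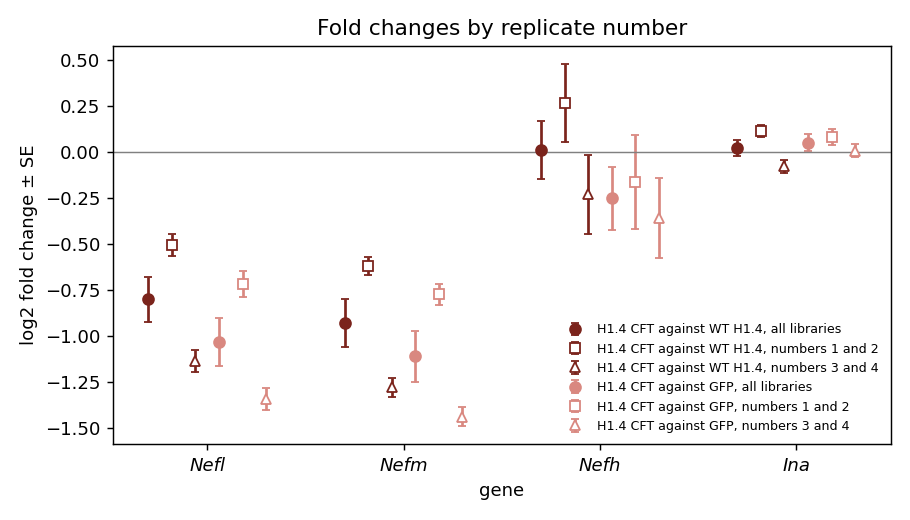
log2 fold changes ± SE of the 4 genes in H1.4 CFT neurons against WT H1.4 and against GFP, from all libraries, from numbers 1 and 2, and from numbers 3 and 4. Nefl and Nefm lie below 0 in each set, lowest in numbers 3 and 4 (-1.13 and -1.28 against WT H1.4), and Ina lies between -0.08 and 0.11.

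In bulk RNA, fewer cells of a type and less RNA per cell cannot be told apart, so neuronal and other cell markers were read beside these genes. Of all genes tested, 19.2% fell and 16.7% rose in H1.4 CFT neurons against WT H1.4, and 16.2% and 13.3% against GFP. Of 12 pan-neuronal markers, 9 fell and 1 rose in each of these comparisons, with median log2 fold changes of -0.32 and -0.30. Their summed level ran from 4721 to 5583 CPM in H1.4 CFT, 6495 to 6664 CPM in WT H1.4 and 6552 to 6629 CPM in GFP. Map2, of dendritic microtubules, had a log2 fold change of -0.54 against WT H1.4 and Eno2, the neuronal enolase, -0.61, while Thy1, a neuronal surface glycoprotein, rose with 0.46. Snap25, of the synaptic fusion machinery, did not pass (0.08). With each library scaled to its summed pan-neuronal marker reads, Nefl and Nefm were lower in H1.4 CFT neurons than in WT H1.4 (log2 fold changes -0.45 and -0.58, edgeR adjusted p of 3.27e-05 and 1.88e-06) and than in GFP (-0.67 and -0.75, edgeR adjusted p of 1.57e-06 and 3.90e-07). That scaling moved the median of all genes tested to 0.38 in both comparisons. It turned the split of calls against WT H1.4 to 678 lower and 11270 higher, in place of 3324 lower and 2893 higher with TMM, and against GFP to 632 lower and 10710 higher, in place of 2796 lower and 2302 higher. Under it the log2 fold change of Ina was 0.38 against WT H1.4 and 0.42 against GFP, which is 0.0021 and 0.04 relative to the median of all genes, and that of Nefh was 0.37 and 0.12, which is -0.013 and -0.27 relative to it. Relative to the same median, Nefl and Nefm stood at -0.83 and -0.96 against WT H1.4 and at -1.06 and -1.14 against GFP.

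Markers of other cells moved less evenly. Their counts stand beside 19.2% of all genes that fell and 16.7% that rose against WT H1.4. Against GFP those shares were 16.2% and 13.3%, and in WT H1.4 against GFP 0.509% and 0.434%. Astrocyte markers summed to 1664 to 1798 CPM in H1.4 CFT, 1242 to 1326 CPM in WT H1.4 and 1614 to 1767 CPM in GFP, and 5 of 8 rose against WT H1.4 and 1 of 8 against GFP. Of 7 excitatory neuron markers 4 fell in each H1.4 CFT comparison, with sums of 811 to 950 CPM in H1.4 CFT, 988 to 1026 CPM in WT H1.4 and 1035 to 1144 CPM in GFP. Inhibitory neuron markers summed to 145 to 184 CPM in H1.4 CFT, 118 to 139 CPM in WT H1.4 and 161 to 210 CPM in GFP, and of 8 tested 5 rose against WT H1.4, while 1 rose and 2 fell against GFP. Without H1.4 CFT 3, H1.4 CFT 4 or WT H1.4 4, the 5 became 2, 3 and 3, and with single GFP libraries left out the 2 became 0 to 4. Cajal-Retzius markers summed to 196 to 227 CPM in H1.4 CFT, 170 to 182 CPM in WT H1.4 and 198 to 202 CPM in GFP (2 of 5 rose against WT H1.4, 1 of 5 against GFP). For oligodendrocyte lineage markers the sums were 427 to 491 CPM in H1.4 CFT, 436 to 518 CPM in WT H1.4 and 428 to 524 CPM in GFP (0 of 8 tested passed against WT H1.4 by edgeR and 1 by DESeq2, and 1 rose against GFP). Microglia markers summed to 8.29 to 12.03 CPM in H1.4 CFT, 10.6 to 14.1 CPM in WT H1.4 and 11.3 to 13.0 CPM in GFP, and of the 2 tested 1 rose and 1 fell in each H1.4 CFT comparison. Vascular and fibroblast markers summed to 58.1 to 71.1 CPM in H1.4 CFT, 54.7 to 69.4 CPM in WT H1.4 and 74.7 to 81.8 CPM in GFP (of 8 tested, 3 rose and 1 fell against WT H1.4, and 1 rose and 1 fell against GFP). None of the listed markers was at 0 in all libraries, though 1 microglia marker was at 0 in all WT H1.4 libraries. In WT H1.4 against GFP, 4 of 8 astrocyte, 5 of 8 inhibitory and 2 of 8 vascular and fibroblast markers fell, 1 of 8 oligodendrocyte markers rose, and 0 of the pan-neuronal, excitatory, Cajal-Retzius and microglia markers passed. With single libraries of those groups left out, 2 to 5 astrocyte, 0 to 5 inhibitory and 1 to 2 vascular and fibroblast markers fell, fewest without GFP 3 or GFP 4 for the astrocyte markers and without GFP 4 for the inhibitory markers. These markers moved beside the lower Nefl/Ina and Nefm/Ina ratios of WT H1.4. The part of the astrocyte, inhibitory and other markers in the neurofilament values was not tested.

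Among 11 other intermediate filament genes, 9 were tested. Their median log2 fold change in H1.4 CFT neurons against WT H1.4 was 0.04, against 0.02 over all genes tested. Of the 9, 1 fell and 3 rose there, beside 19.2% and 16.7% of all genes tested. The gene that fell was Prph, which encodes peripherin, a filament protein mainly of peripheral neurons that can join neurofilaments. Prph had 6.30, 6.25, 2.78 and 3.63 CPM in H1.4 CFT 1 to 4, against 9.59, 10.1, 6.89 and 7.16 CPM in WT H1.4 1 to 4 and 9.52, 8.98 and 7.03 CPM in GFP 2 to 4. All mutant libraries lay below the others, with H1.4 CFT 3 and 4 lowest. Its log2 fold change was -0.83 against WT H1.4 (SE 0.24, edgeR adjusted p = 0.0144) and -0.84 against GFP (SE 0.26, edgeR adjusted p = 0.0252). The call against GFP was lost without H1.4 CFT 4, GFP 2 or GFP 3 (edgeR adjusted p of 0.0672, 0.0911 and 0.077, within 7.27e-08 to 0.0911 over 16 alternatives).

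The filament genes of glia and progenitors rose against WT H1.4 and did not pass against GFP, and that difference was not tested beyond WT H1.4 against GFP itself. Gfap, of astrocytes, had a log2 fold change of 0.87 against WT H1.4 (SE 0.064, edgeR adjusted p = 2.08e-07) and 0.05 against GFP (edgeR adjusted p = 0.607), and -0.82 in WT H1.4 against GFP (edgeR adjusted p = 5.21e-05). Nes, the nestin of neural progenitors, and Vim, the vimentin of progenitors and mesenchymal cells, had log2 fold changes of 0.32 and 0.17 against WT H1.4 (edgeR adjusted p of 0.0053 and 0.00899). Against GFP they had 0.07 and 0.14 (edgeR adjusted p of 0.589 and 0.0501). The nuclear lamina genes Lmna, Lmnb1 and Lmnb2 and the synemin gene Synm did not pass in any of the 3 comparisons, with log2 fold changes between -0.11 and 0.09. Against GFP, 1 of the 9 fell and 0 rose (1 rose without the low-count filter), beside 16.2% and 13.3% of all genes tested.

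With TMM scaling, most genes of other parts of the axonal cytoskeleton also fell, by less than Nefl and Nefm in each gene named here. Scaled to pan-neuronal markers, which moved the median of all genes to 0.38, most of them did not fall. Relative to that median, the tubulin list then stood at -0.46 and -0.39 against WT H1.4 and GFP. The membrane skeleton list stood at -0.34 and -0.31. Of 8 tubulin genes, the subunits of microtubules, 7 fell against WT H1.4 and 7 against GFP (medians -0.43 and -0.37). Among all genes tested, 19.2% fell against WT H1.4 and 16.2% against GFP. Tubb3, the neuronal β-tubulin, had 1237 ± 122 CPM in H1.4 CFT, 1662 ± 13.9 CPM in WT H1.4 and 1563 ± 57.4 CPM in GFP, with log2 fold changes of -0.43 and -0.34. Tubb6, a β-tubulin gene, was the exception with 0.14 against WT H1.4 (edgeR adjusted p = 0.148). Of 9 genes of the axonal membrane skeleton, 7 fell against WT H1.4 and 6 against GFP (medians -0.32 and -0.29). Ank3, the ankyrin of the axon initial segment, had log2 fold changes of -0.76 against WT H1.4 and -0.72 against GFP (edgeR adjusted p of 0.000337 and 0.000937). Add1, an adducin gene, and Nfasc, the adhesion protein neurofascin, did not pass in either comparison.

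Of 12 genes for filament transport and crosslinking, 8 fell and 1 rose against WT H1.4, and 5 fell and 1 rose against GFP. The medians were -0.21 and -0.11. Among all genes tested, 19.2% fell and 16.7% rose against WT H1.4, and 16.2% and 13.3% against GFP. Kif5a, a kinesin motor heavy chain that carries neurofilaments, had log2 fold changes of -0.31 and -0.36 and Dync1i1, a dynein intermediate chain, -0.46 and -0.56 against WT H1.4 and GFP. Dst, the linker of filaments dystonin, had -0.34 and -0.30. Plec, which encodes the crosslinker plectin, rose with 0.38 and 0.56 (edgeR adjusted p of 0.000388 and 3.77e-05). Among 19 kinases and phosphatases that act on neurofilament proteins, 7 fell and 1 rose against WT H1.4, and 6 fell and 2 rose against GFP (medians -0.05 and -0.09), where 3 fell without GFP 4. Cdk5 itself, a tail kinase of neurofilaments, did not pass (0.04 and 0.05), while Cdk5r1, its activator p35, fell with log2 fold changes of -0.42 and -0.35. Prkacb, a catalytic subunit of protein kinase A, fell with -0.49 and -0.50.

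Genes of filament turnover and of neurofilament mRNA binding were mixed. Of 6 turnover genes, 4 fell against WT H1.4 and 2 against GFP (medians -0.20 and -0.17), where 1 fell without H1.4 CFT 3, H1.4 CFT 4 or GFP 2. Trim2, a ubiquitin ligase that binds the light chain, had log2 fold changes of -0.32 and -0.16 (edgeR adjusted p of 4.19e-05 and 0.0225). Of 7 genes for proteins that bind neurofilament mRNAs, 2 fell against WT H1.4 and 3 against GFP (medians -0.03 and -0.08). The shares of all genes tested that fell in these comparisons were 19.2% and 16.2%. Arhgef28, whose protein binds the light chain mRNA, had 21.6 ± 3.68 CPM in H1.4 CFT, 37.6 ± 2.90 CPM in WT H1.4 and 35.7 ± 4.47 CPM in GFP, a log2 fold change of -0.80 against WT H1.4 (SE 0.11, edgeR adjusted p = 4.79e-05) and -0.73 against GFP (SE 0.12, edgeR adjusted p = 0.00028). Elavl4, the neuronal mRNA-stabilizing protein HuD, had -0.52 and -0.60. Tardbp, the RNA-binding protein TDP-43, did not pass (0.02 and -0.02). In WT H1.4 against GFP, Gfap fell and the motor gene Myo5a rose, and they were the genes past the test among all 7 of these lists.

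Scaled to the pan-neuronal markers, which moved the median of all genes to 0.38, most lists had more genes higher than lower. Of 8 tubulin genes 2 fell and 1 rose against WT H1.4, and 3 fell and 1 rose against GFP. Of 9 membrane skeleton genes 2 fell and 4 rose in each comparison, and of 19 kinases and phosphatases 2 fell and 16 rose in each. Of 12 transport and crosslinker genes 0 fell and 7 rose against WT H1.4, and 1 fell and 8 rose against GFP. Of 6 turnover genes 0 fell in either comparison, and 2 rose against WT H1.4 and 5 against GFP. Of 7 mRNA-binding genes 2 fell and 5 rose in each comparison, and of 9 other intermediate filament genes 1 fell in each, while 8 rose against WT H1.4 and 7 against GFP. Over all genes tested, this scaling gave 678 lower and 11270 higher against WT H1.4, and 632 and 10710 against GFP. Whether more genes fell or rose thus turned with that shift of all genes for the kinase, transport, turnover, membrane skeleton and mRNA-binding lists. Relative to the median of all genes, their medians stayed below 0 against WT H1.4 and GFP. They were -0.34 and -0.31 for the membrane skeleton, -0.23 and -0.12 for transport and -0.22 and -0.19 for turnover. The kinase list had -0.07 and -0.09 and the mRNA-binding list -0.04 and -0.09, while other intermediate filament genes had 0.03 and 0.05.

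**Figure D5:**
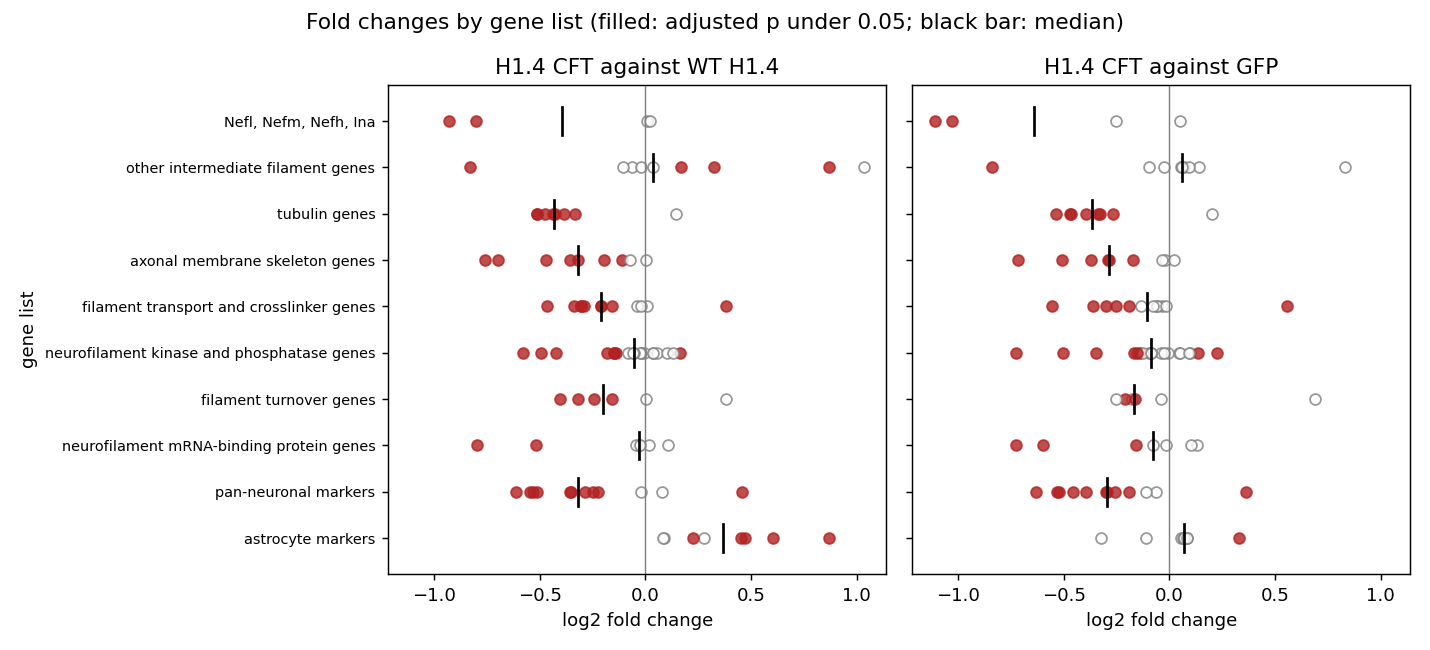
log2 fold changes of the tested genes of each list in H1.4 CFT neurons against WT H1.4 (left) and against GFP (right), filled where the adjusted p was under 0.05, with the median as a black bar. Nefl and Nefm lie left of the tubulin genes (medians -0.43 and -0.37), while Ina and Nefh did not pass.

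Genome neighbours were read by name from the GRCr8 table. Nefl and Nefm lie on rat chromosome 15 with 1 pseudogene between them, and Ina and Nefh lie on chromosomes 1 and 14. Among the 2 entries read on each side of Nefl, the tested gene other than Nefm was Dock5, a guanine nucleotide exchange factor gene. Among those beside Nefm only Nefl was tested. Dock5 had 3.29 CPM in H1.4 CFT, 3.53 CPM in WT H1.4 and 3.71 CPM in GFP. Its log2 fold changes were -0.10 against WT H1.4 (SE 0.19, edgeR adjusted p = 0.694) and -0.17 against GFP (SE 0.20, edgeR adjusted p = 0.581). Beside Ina, the polycomb gene Pcgf6 fell against WT H1.4 (log2 fold change -0.34, SE 0.064, edgeR adjusted p = 0.000369) and did not pass against GFP (-0.14, edgeR adjusted p = 0.137), and the TFIID gene Taf5 did not pass in either. Beside Nefh, the clathrin adaptor gene Ap1b1 fell with -0.16 and -0.17 (edgeR adjusted p of 0.00853 and 0.0105).

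The genes most like each member across the 11 libraries, among 10223 named genes with a mean of at least 10 CPM, are given as a description, since all share the libraries and the group differences. For Nefl they were Ube2ql1, Lmo3 and Diras2, each with a Pearson correlation of log2 CPM of 0.992. For Nefm they were Diras2 (0.995), Slc35f1 (0.993) and the tubulin gene Tubb4a (0.992). Diras2, a small GTPase gene on both lists, had 81.9 CPM in H1.4 CFT, 132 CPM in WT H1.4 and 150 CPM in GFP. For Nefh the highest were Clptm1l (0.858), Ubl4a (0.844) and Znhit2 (0.812), and for Ina they were Ttyh3 (0.877), Sema6b (0.872) and Kansl3 (0.865). Against the mean standardized level of all 4 the highest were Itpk1 (0.956), Tmem271 (0.947) and Celsr2 (0.946), followed by Slc41a3, Adarb1, Kcnk3, Rtn2, Ralgds, Gsk3b and Plcl2 at 0.922 to 0.932.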

How the data were processed

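Each library gave a table of raw counts per gene symbol, deposited by the authors with no normalization. STAR 2.7.2b, HTSeq 0.10.0 and the mRatBN7.2 build are named in the submitters' processing notes. The annotation release and the strand setting are not given in the sources used here. The 5 summary entries, 53.1% to 54.1% of each file, were left out.

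Work on these counts used edgeR 4.0.16 in R 4.3.3: filterByExpr by group (minimum count 10, total 15), TMM, robust dispersions, the quasi-likelihood test with a term for group over all 11 libraries, and Benjamini-Hochberg adjustment over 17294 genes. The SE is the log2 fold change over the square root of F. The fit was also run on simulated counts of independent libraries. They held no split by number pair, so that run cannot show that the p-values hold for these libraries. Log ratios of members were compared by exact two-sided permutation over libraries. Alternatives were RLE, DESeq2 1.42.0, other filters, a replicate block, only the groups compared, pan-neuronal scaling, each library left out, and number pairs; the number pair term was added after seeing the data.

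Members, lists and tests were chosen with earlier results of these data known. Named genes were the 4 members, up to 4 called genes per list by smallest p against WT H1.4 (any gene of a list of at most 12), the genes most like the members, with a pseudocount of 0.5 CPM, and 2 neighbours on each side. Cdk5 was added after its values were seen. Some genes that meet this rule are not reported here. The labels call the samples biological replicates but name no cultures, so p-values measure the spread between these samples.

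Equal replicate numbers were checked as pairs by correlating residual log2 CPM between groups. The correlations were 0.132 to 0.208 for H1.4 CFT and WT H1.4 and 0.133 to 0.274 for H1.4 CFT and GFP. For WT H1.4 and GFP they were 0.101 to 0.221. All were over 0.1, and the replicate block rests on this check, not on the labels. No correlations of unequal numbers are given for comparison. The split of libraries by number pair could also give such values, so the check cannot show that equal numbers are pairs. The main fit and the main permutation tests did not pair libraries. Symbols were matched to RefSeq tables of GRCr8, 29477 of 42172.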

Additional observations from a re-analysis of the deposited data

Results flagged for a closer look

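The difference of the H1.4 CFT against WT H1.4 effect between libraries numbered 3 and 4 and those numbered 1 and 2 passed the test for Nefl (log2 -0.62), Nefm (-0.65) and Ina (-0.18), where 10.1% of all genes passed. The p of that test measures the spread within number pairs only. Within WT H1.4, the log2 Nefh/Ina ratio of library 1 stood apart from the other 3, with a gap of 0.837 of the group's range, and so did the log2 Nefm/Nefh ratio of that library, with a gap of 0.962. Both rest on 64 Nefh reads there, and both gaps are past Dixon's 95% critical value for 4 libraries, but 20 such tests were made, of which chance gives about 1 in 20.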

How the results depend on the processing

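Nefl and Nefm fell in H1.4 CFT in every alternative run, 17 of 17 against WT H1.4 (log2 fold changes -1.13 to -0.45 and -1.28 to -0.58, adjusted p up to 0.00619) and 16 of 16 against GFP (-1.34 to -0.67 and -1.44 to -0.75, adjusted p up to 0.00488). With the replicate block they were -0.81 and -0.94 against WT H1.4 and -1.04 and -1.14 against GFP, and the block changed no other call of the 4 genes. For WT H1.4 against GFP, Nefl passed when only those groups were fitted (-0.23, adjusted p = 0.0222), and Nefl and Nefm passed in numbers 3 and 4 (-0.21 and -0.16). In fits of a single number pair, here and below, p measures the spread within that pair only.

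Scaled to pan-neuronal markers, Nefh and Ina rose against WT H1.4 (0.37 and 0.38) and Ina against GFP (0.42), Nefh turned to 0.12 against GFP, and Prph of WT H1.4 against GFP turned to 0.00014. In numbers 1 and 2 Ina rose against WT H1.4 (0.11), Ina of WT H1.4 against GFP turned to -0.031 and Prph to 0.043. In numbers 3 and 4 Nefh and Ina turned to -0.23 and -0.077 against WT H1.4. With libraries left out singly, the fold change against WT H1.4 ran from -0.095 to 0.069 for Nefh and from -0.0046 to 0.051 for Ina, and Prph of WT H1.4 against GFP from -0.14 to 0.084. Relative to the median of all genes, which that scaling moved to 0.38, Nefh stood at -0.013 and Ina at 0.0021 against WT H1.4, and at -0.27 and 0.04 against GFP, and the scaling itself moved all genes alike. The causes of the changes by number pair and library were not tested.

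The ratio calls were lost with the replicate block, whose pairs cannot reach the threshold. They were also lost with any library of the comparison left out. The permutation adjusted p was then 0.0643 to 0.114 against WT H1.4. That value also depends on how many of the 18 tests reach the smallest p. Against GFP it was 0.0923 to 0.164 for H1.4 CFT and 0.0923 to 0.15 for WT H1.4. There the libraries left allow no p under 0.05, so the loss was fixed by the design. Under the block the log2 differences against WT H1.4 were -0.84 for Nefl/Ina, -0.97 for Nefm/Ina, -0.83 for Nefl/Nefh, -0.96 for Nefm/Nefh and -0.13 for Nefm/Nefl. Against GFP the first 4 were -1.15, -1.25, -0.88 and -0.98 in H1.4 CFT and -0.24, -0.20, -0.048 and -0.0011 in WT H1.4. With libraries left out, in the same order, they ran against WT H1.4 from -0.92 to -0.75, -1.04 to -0.88, -0.90 to -0.75, -1.06 to -0.88 and -0.15 to -0.10, and Nefh/Ina from -0.091 to 0.032. Against GFP the first 4 ran in H1.4 CFT from -1.18 to -1.01, -1.25 to -1.09, -0.88 to -0.69 and -0.98 to -0.79, and in WT H1.4 from -0.31 to -0.22, -0.27 to -0.13, -0.051 to 0.15 and -0.0011 to 0.17.

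By number pair, with no test, Nefl/Ina, Nefm/Ina and Nefh/Ina differed against WT H1.4 by -0.62, -0.73 and 0.14 in numbers 1 and 2 and by -1.06, -1.20 and -0.15 in numbers 3 and 4. Against GFP, Nefl/Ina, Nefm/Ina and Nefm/Nefh differed in H1.4 CFT by -0.80, -0.85 and -0.60 in numbers 1 and 2 and by -1.35, -1.44 and -1.11 in numbers 3 and 4, and Nefl/Nefh by -0.55 in numbers 1 and 2. In WT H1.4 numbers 1 and 2, Nefl/Ina, Nefl/Nefh and Nefm/Nefh differed from GFP by -0.18, 0.21 and 0.27. Calls over all genes in WT H1.4 against GFP, 88 lower and 75 higher, became 136 and 132 with DESeq2, 215 and 247 without the filter, 123 and 125 with the replicate block, 176 and 172 with only those groups, 38 and 38 scaled to pan-neuronal markers, 114 and 101 in numbers 1 and 2 and 647 and 949 in numbers 3 and 4. In numbers 1 and 2, 1241 genes were higher in H1.4 CFT than in GFP, in place of 2302. Levels per transcript length were not run. Read depth limits Nefh most.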
